A study of Mus musculus with 6 samples.

Results

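Among adipocyte nuclei of mouse subcutaneous white adipose tissue, a small set was chosen by the genes Peg10, Ptger3, Plagl1, Btc and Svep1. It is called here the Peg10-rich adipocyte nuclei. A nucleus belonged to it by a count of detected genes, where detected means at least 1 UMI (a unique molecular identifier, which counts 1 RNA molecule). It had to pass an adipocyte gate of at least 5 of the 8 genes Plin1, Adipoq, Plin4, Cidec, Lipe, Acvr1c, Adrb3 and Pde3b. It also had to hold at least 2 of those 5 genes (set C), and more of them than of set A (Pck1, Nrg4, Nnat, Cfd, Slc1a3), set B (Mageb18, Ptchd4, Pnpla3, Lhfpl2, Tenm4) or set D (Gabrr2, Vat1l, St6galnac5, Rgs7, Chrdl1). The nuclei were thus chosen by the detection of these 28 genes. In all, 451 of 15760 gated adipocyte nuclei met the rule, among 61496 nuclei kept of 65162 barcodes. The marker sets came from clusters of these same nuclei, so their levels are given as a description of the choice, with no test.

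Adipocytes store triglyceride and release it as fatty acids by lipolysis, under hormones that act through G proteins. Ptger3 encodes the EP3 receptor for prostaglandin E2, which couples to inhibitory G proteins and restrains lipolysis in fat. Peg10, a gene derived from a retrotransposon, and Plagl1, a zinc finger transcription factor, are imprinted genes expressed from the paternal allele. Btc encodes betacellulin, a ligand of the EGF receptor family, and Svep1 encodes a large protein of the extracellular matrix.

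The data were single-nucleus RNA-seq of 6 libraries, 3 from GPSM1f/f mice, which carry floxed Gpsm1 and are called flox controls, and 3 from GPSM1ΔTreg mice, in which the labels place the deletion in regulatory T cells (Treg knockouts). The treatment label of all libraries gives a high-fat diet of 12 weeks, the upper end of the range in the protocol text, and the diet started at 7 weeks of age. The Cre driver, the deleted exons and the sex of the mice are details that the sources used here do not give. Because the deletion was not in adipocytes, Gpsm1 in the Peg10-rich nuclei does not check the genotype. In UMIs per 1000000 of the sum over the nuclei counted in a library (CPM), it stood at 15.8, 11.6 and 8.53 CPM in flox controls 1, 2 and 3 and at 12.0, 30.9 and 11.6 CPM in Treg knockouts 1, 2 and 3. Nothing in the labels says more of the replicates than that there were 3 mice per genotype, so p-values measure the spread between these libraries.

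The libraries held 38857282 to 55342903 UMIs. Flox control 3 stood apart in depth, with 1061 of its 3149 adipocyte nuclei under 3000 UMIs against 55 to 482 in the other libraries. Within the Peg10-rich nuclei, Treg knockout 3 stood apart in lymphocyte RNA, as described with the markers of other cells. Over all kept nuclei Treg knockout 1 was highest, with T and NK cell markers at 904 CPM against 738 CPM in Treg knockout 3. No barcode of the Peg10-rich nuclei occurred in 2 libraries, while 24 to 39 kept barcodes were shared by any pair of libraries.

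Peg10 set these nuclei apart most. It stood at 280.4, 285 and 257 CPM in the flox controls and at 404, 331 and 252 CPM in the Treg knockouts. In the other 15309 adipocyte nuclei it stood at 29.8, 17.3 and 18.8 CPM in the flox controls and at 22.0, 10.8 and 5.54 CPM in the knockouts. Every library thus had more Peg10 in the chosen nuclei than in any library's other adipocyte nuclei. Even so, Peg10 was detected in 64.1% of the chosen nuclei, against 5.93% of the others.

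The other 4 genes of the set were less restricted. Ptger3 stood at 672 to 928 CPM against 155 to 458 CPM in the other adipocyte nuclei, and Plagl1 at 276 to 619 CPM against 110.0 to 157 CPM. Btc ranged from 195 to 458 CPM, against 78.7 to 135 CPM. Svep1 ranged from 2105 to 2612 CPM, against 944 to 1766 CPM. For each of these genes the lowest library of the chosen nuclei lay above the highest library of the others. Svep1 was detected in 99.6% of the chosen nuclei and in 87.5% of the others, so it marks adipocytes in general as well.

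**Figure D1:**
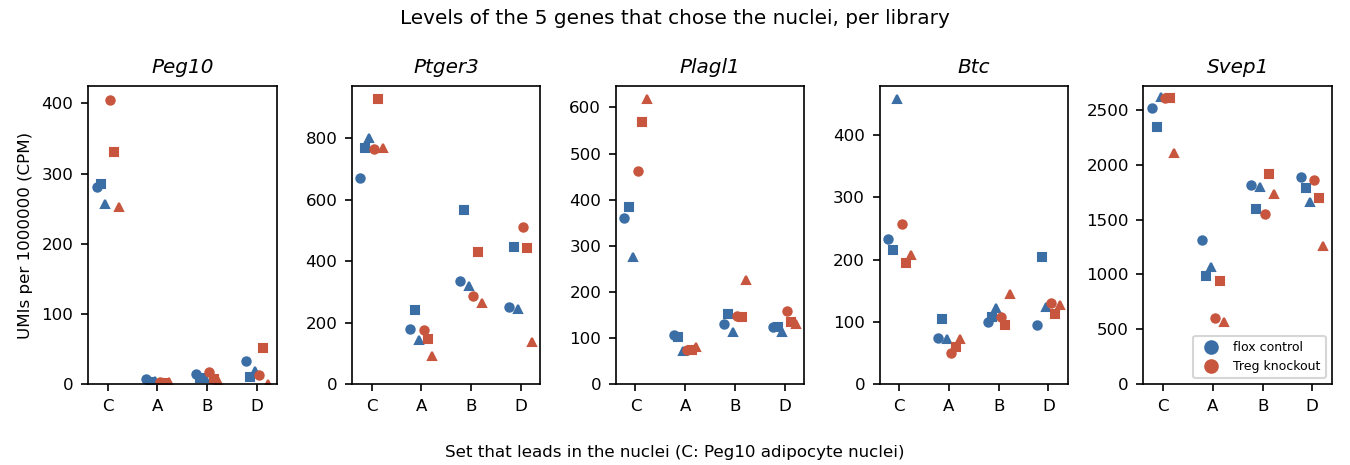
UMIs per 1000000 (y axis) of the 5 genes that chose the nuclei, summed over nuclei in which set C, A, B or D leads (x axis), with 1 point per library (circles replicate 1, squares replicate 2, triangles replicate 3; blue flox control, red Treg knockout). Peg10 lies at 252 CPM or more in all 6 libraries where set C leads, while the other 4 genes are also seen where set B or set D leads.

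The boundary of the set was narrow. Of the 451 nuclei, 390 led by exactly 1 gene and 61 by 2 or more, and 1382 nuclei with at least 2 genes of set C lay just outside because another set tied with it. Just inside, Peg10 stood at 266 CPM, Ptger3 at 778 CPM and Plagl1 at 393 CPM. Just outside, these genes stood at 90.8, 511 and 265 CPM. A further limit is that 2501 nuclei held 4 or 5 genes of set C without that set leading, against 397 inside. When each nucleus was thinned to 3000 UMIs and the rule applied again, 376 nuclei were chosen, of which 155 were among the 451. That is 34.4% of the original set and 41.2% of the thinned one.

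Among themselves the nuclei varied in depth and in the company of other sets. All 5 genes of set C were detected in 51.0% of them, 4 in 37.0%, and 2 or 3 in 12.0%; in flox control 3 the last share was 27.9%. Set B came closest behind set C in 64.3% of the nuclei, set D in 63.0% and set A in 53.9%, ties included. By library, set A came closest in 55.2%, 45.0% and 50% of the nuclei of flox controls 1, 2 and 3. In Treg knockouts 1, 2 and 3, with 38, 31 and 40 nuclei, it came closest in 60.5%, 58.1% and 72.5%. Median UMIs were 12909, 11287 and 7886.5 in the flox controls and 17744.5, 8584 and 9741.5 in the knockouts, each above the median of the other adipocyte nuclei of its library, which ranged from 5352 to 10012. The medians overlapped between the genotypes, at 10694 ± 2563 against 12023 ± 4988 UMIs (SD, n = 3 libraries each; exact two-sided permutation p = 0.8). Mitochondrial RNA was low, with medians of 0.0270 to 0.0787% of UMIs.

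The Peg10-rich nuclei made up a smaller share of adipocyte nuclei in the Treg knockouts than in the flox controls, by a difference that the design cannot call. They were 5.62% (145 of 2581), 3.54% (111 of 3136) and 2.73% (86 of 3149) in flox controls 1, 2 and 3. In the knockouts they were 2.61% (38 of 1457), 1.07% (31 of 2906) and 1.58% (40 of 2531). All 3 knockout libraries lay below all 3 controls, though knockout 1 and control 3 were close, with 95% Clopper-Pearson intervals of 1.85 to 3.56% and 2.19 to 3.36%. The means were 3.96 ± 1.49% and 1.75 ± 0.785% (SD, n = 3 each), a ratio of 0.442 with an exact two-sided permutation p of 0.1, the smallest that 3 against 3 libraries allow. Without flox control 1, the highest library, the means were 3.14% and 1.75%, a ratio of 0.559. Without flox control 3 the means were 4.58% and 1.75%. Without Treg knockout 3 they were 3.96% and 1.84%. In a fraction of nuclei, fewer nuclei of a type and more of another cannot be told apart.

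The other classes changed in share as well. Nuclei led by set A made up 30.4 ± 7.40% of adipocyte nuclei in the flox controls and 63.7 ± 6.18% in the knockouts (exact permutation p = 0.1). Those led by set B went from 23.6 ± 2.06% to 8.80 ± 1.55% and those led by set D from 8.11 ± 2.93% to 3.78 ± 1.13%, each with no overlap and the same p by the exact permutation test. With nuclei led by set A left out of the denominator, an alternative chosen after seeing the data, the Peg10-rich nuclei were 5.62 ± 1.70% of adipocyte nuclei in the flox controls and 4.69 ± 1.33% in the knockouts, and the libraries overlapped (exact permutation p = 0.6). A nucleus in which set A leads cannot enter the set, so fewer Peg10-rich nuclei and more detection of set A cannot be told apart. Of all Peg10 UMIs in adipocyte nuclei, the chosen nuclei held 38.8 ± 4.62% in the flox controls and 42.9 ± 9.02% in the knockouts (SD, n = 3 each), a description, since Peg10 helped choose them.

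**Figure D2:**
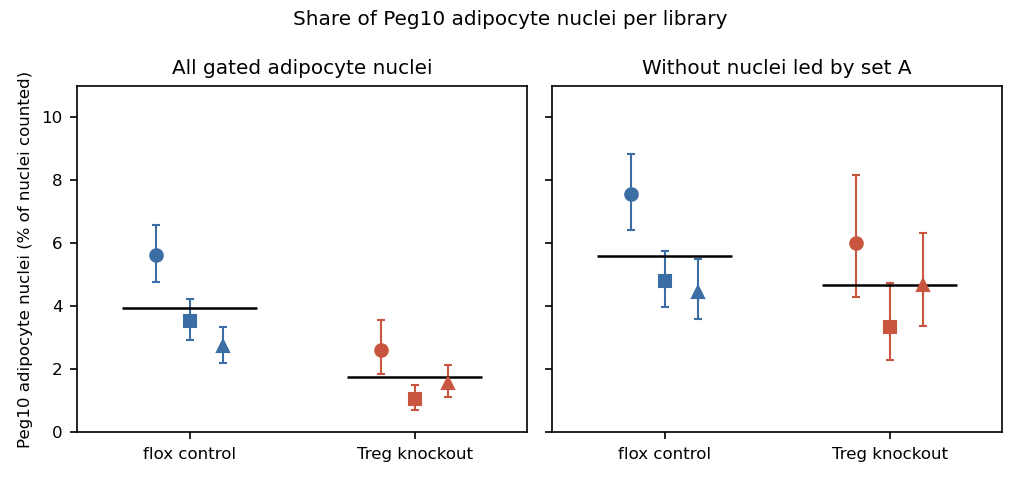
Peg10-rich nuclei as a percentage of all gated adipocyte nuclei (left) and of those in which set A does not lead (right), for each library (points; circles replicate 1, squares replicate 2, triangles replicate 3), with 95% Clopper-Pearson intervals for counting error and the group mean as a black line. The groups do not overlap on the left (3.96% against 1.75%) and overlap on the right (5.62% against 4.69%).

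Markers that the rule did not use placed the nuclei among adipocytes, at a lower level than the rest. The summed level of 10 such genes (Pparg, Plin2, Fabp4, Lpl, Gpam, Acsl1, Dgat2, Cebpa, Tshr and Npr3) was 9894, 10073 and 9850 CPM in the flox controls and 8326, 9389 and 8395 CPM in the knockouts. It was 13581 to 15780 CPM in the other adipocyte nuclei and 1908 to 4338 CPM in the nuclei outside the gate. Between the genotypes the sum differed without overlap, at 9939 ± 118 against 8703 ± 595 CPM (exact permutation p = 0.1, n = 3 each).

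Which other genes accompanied set C was described over 6646 genes with a mean of at least 20 CPM and outside the rule, by the ratio of CPM + 1 in the Peg10-rich nuclei to that in the other adipocyte nuclei of the same library. No test was made, since the clusters behind the rule used these values. Of these genes, 695 (10.5%) were higher in 6 of 6 libraries and 1454 (21.9%) lower in 6 of 6, and the median gene differed by -0.12 on the log2 scale. The chosen nuclei also had more UMIs, and whether depth adds to these differences was not tested beyond nuclei of 5000 to 20000 UMIs, a range chosen after seeing the data, where 27 of the 28 genes with the highest or lowest ratios moved by less than their SD over libraries and Col15a1 went from -3.33 to -4.16.

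Slit2, a secreted guidance protein, stood at 274, 262 and 211 CPM in the flox controls and 190.2, 58.8 and 132 CPM in the knockouts, against 67.0, 92.8 and 66.7 CPM and 28.1, 21.7 and 19.3 CPM in the other adipocyte nuclei. Each library's chosen nuclei were higher than its other adipocyte nuclei, with a log2 ratio of 2.0 ± 0.59 (SD, n = 6 libraries). Ccn5, a secreted protein of the CCN family, had a log2 ratio of 2.08 ± 0.46, and the thrombospondin genes Thbs2 and Thbs1 had 1.89 and 1.53. In the list of 30 matrix and basement membrane genes, 23 were measured, with a median of -0.30. Of these, 6 (26.1%) were higher in all 6 libraries and 7 (30.4%) lower, against 10.5% and 21.9% of all measured genes. Basement membrane genes went both ways. The collagen IV gene Col4a5 (1.16) and the laminin genes Lama5 (1.0) and Lamc1 (0.46) were higher. The laminin genes Lama4 (-1.07) and Lamb1 (-1.18), the collagen VI gene Col6a3 (-1.50) and the basement membrane collagen gene Col15a1 (-3.33) were lower.

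Other genes high in these nuclei had varied roles. The log2 ratio was 2.12 for the kinase gene Dclk3, 1.82 for Xkr4, 1.79 for Pawr, 1.69 for the calcium channel gene Cacna1e and for the small GTPase gene Rab31, and 1.68 for the amino acid transporter gene Slc7a8. Pawr was uneven, at 104, 191 and 189.9 CPM in the flox controls and 166, 201 and 48.5 CPM in the knockouts, so Treg knockout 3 lay lowest. Acta2, which encodes smooth muscle actin, had a ratio of 1.62. The mural cell genes on the list other than Acta2 and Mcam summed to 4.62 to 43.1 CPM in the Peg10-rich nuclei and 16.7 to 35.5 CPM in the other adipocyte nuclei. Mcam itself was at 116 to 195 CPM in the Peg10-rich nuclei and 227 to 287 CPM in the others. Of 11 measured stress and immediate early genes, 5 (45.5%) were higher in all libraries, against 10.5% of all measured genes. They were Adm, which encodes the peptide adrenomedullin (1.81), Gadd45b (1.32), Fos (0.99), Ndrg1 (0.68) and Junb (0.65). Another 3 of this list (27.3%, against 21.9% of all measured genes) were lower. Among them were Vegfa (-0.54), the vascular growth factor gene, and Pfkfb3 (-0.74), a regulator of glycolysis.

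Imprinted genes did not go one way as a group. Apart from the rule's own Peg10, Plagl1 and Nnat, 17 of the list's 40 genes were measured, with a median of -0.25. In all 6 libraries 7 (41.2%) were higher and 7 (41.2%) lower, against 10.5% and 21.9% of all measured genes. Usp29 (0.86), Gab1 (0.62), Zim1 (0.49), Grb10 (0.40), Peg3 (0.39), Sgce (0.36) and Gnas (0.22) were higher. Sgce is the imprinted neighbour of Peg10. Mest, a paternally expressed gene linked to fat cell size, stood at 169, 143 and 99.2 CPM in the flox controls and 141, 68.1 and 37.0 CPM in the knockouts. In the other adipocyte nuclei it stood at 502, 425 and 475 CPM and at 374, 362 and 313 CPM. Mest was thus low in the chosen nuclei of all 6 libraries, with a log2 ratio of -2.04 ± 0.64 (SD, n = 6). The antisense transcripts Airn (-0.56) and Kcnq1ot1 (-0.41) were lower too, but whether counting used strand is not known from the sources used here.

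Most measured genes that make and store lipid were lower than in all other adipocyte nuclei together. Some of them are compared class by class below. Acsl1, which activates long-chain fatty acids, stood at 700.4, 487 and 815 CPM in the flox controls and 357, 365 and 369.7 CPM in the knockouts, against 2619.9 to 3611 CPM in the other adipocyte nuclei. All 6 libraries lay far below, with a log2 ratio of -2.66 ± 0.61 (SD, n = 6). The 13 measured genes of de novo lipogenesis had a median of -0.75, with 0 higher in all libraries. Those lower in all libraries were 11 (84.6%), against 21.9% of all measured genes. They included Fasn (-1.84), the fatty acid synthase, Scd1 (-1.58), the stearoyl-CoA desaturase, Srebf1 (-1.44), their transcription factor, and Acaca (-1.12), acetyl-CoA carboxylase. Of 18 measured genes of triglyceride synthesis and lipid uptake, 11 (61.1%) were lower and 0 higher, with a median of -0.70. Agpat2 (-1.99), Dgat1 (-1.91) and Dgat2 (-1.44) encode enzymes on the path to triglyceride, and Gpd1 (-2.77) supplies its glycerol phosphate. Lpl, the lipase that takes up fatty acids from lipoproteins, differed by -0.04. Thrsp (-2.62), a gene tied to lipogenesis, Ces1f (-4.01), a carboxylesterase, Cyp2e1 (-3.15), a cytochrome P450, and Rxrg (-2.80), a retinoid X receptor, were among the lowest of all.

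The genes that control lipolysis leaned lower, with a median of -0.34. Of 20 measured, 2 (10%) were higher in all libraries and 10 (50%) lower, against 10.5% and 21.9% of all measured genes. Those higher were the succinate receptor gene Sucnr1 (0.47) and the inhibitory G protein gene Gnai1 (0.36). Other receptors that signal through inhibitory G proteins were lower, namely Ffar2 (-2.00) and the adenosine A1 receptor gene Adora1 (-1.02), as were the fatty acid receptor gene Ffar4 (-1.48) and the monoglyceride lipase gene Mgll (-0.91). The main triglyceride lipase gene Pnpla2 differed by -0.15. Of the rest of the prostaglandin list, 0 of 7 measured genes were higher in all libraries and 2 (28.6%) were lower, close to the 21.9% of all measured genes. Hpgd, which breaks down prostaglandins, had a log2 ratio of 0.41, and the synthase gene Ptgs1 reached at most 3.09 CPM in any library of these nuclei. Of 5 measured genes of the EGF family list, 0 were higher and 2 (40%) lower in all libraries. Egfr differed by 0.14 and Erbb4, a receptor for betacellulin, by -2.11.

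The lists of insulin response, hormones and transcription factors are read against the 21.9% of all measured genes that were lower and the 10.5% that were higher in 6 of 6 libraries. Of 18 measured genes of insulin signalling and glucose uptake, 10 (55.6%) were lower and 1 (5.56%) higher, with a median of -0.33. Slc2a4, the insulin-responsive glucose transporter, was lower (-1.69), Insr, the insulin receptor, differed by -0.09, and Pdk4, which diverts pyruvate from oxidation, was higher (0.58). Leptin (Lep) was slightly higher in all 6 libraries (0.25 ± 0.11, SD), while resistin (Retn, -1.73) and Rbp4 (-1.19) were lower. Of 20 measured transcription factors of fat cells, 9 (45.0%) were lower and 2 (10.0%) higher, with Pparg at -0.59, Ebf2 at -1.53, Tcf7l2 at 0.43 and Ebf1 at 0.27. In the remaining lists 3 of 6 thermogenic genes, 6 of 15 fatty acid oxidation genes and 6 of 13 genes of oxidative phosphorylation were lower in all libraries, and 0 of each were higher.

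**Figure D3:**
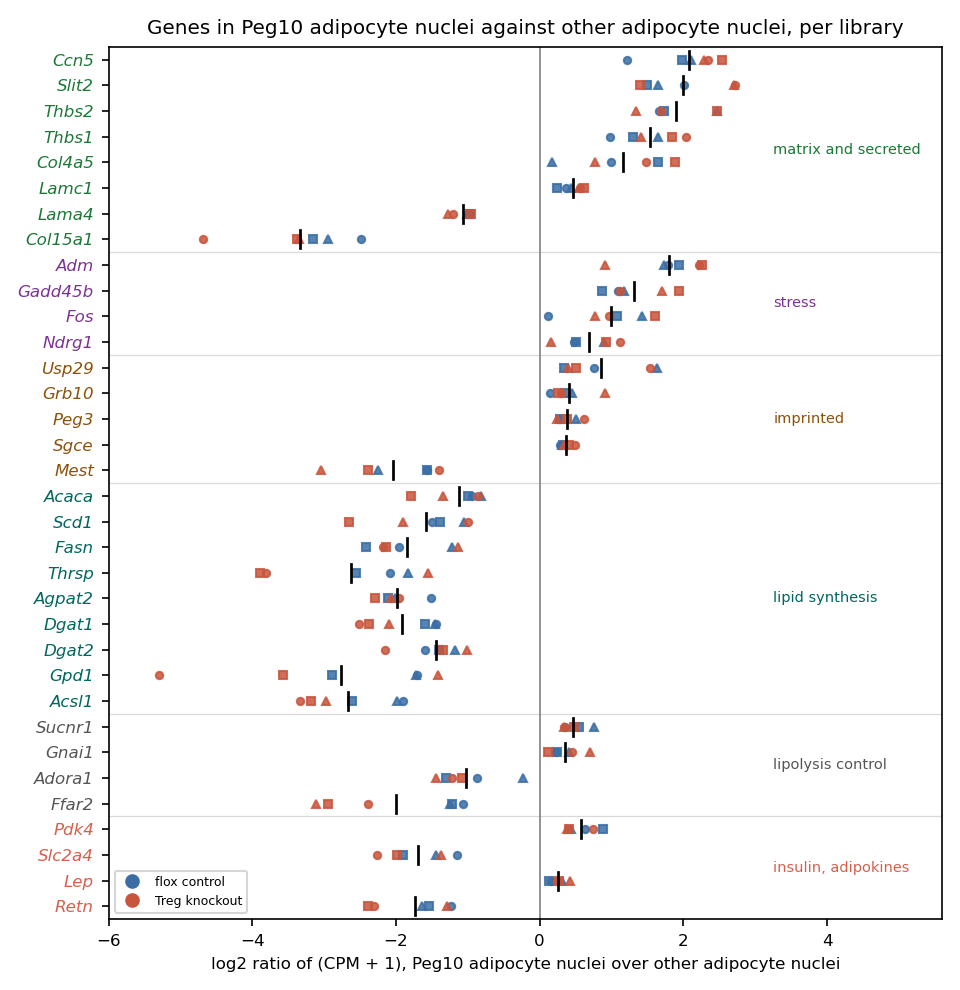
Log2 ratio of CPM + 1 in Peg10-rich nuclei over the other adipocyte nuclei of the same library (x axis) for named genes by role (y axis); points are libraries (circles replicate 1, squares replicate 2, triangles replicate 3; blue flox control, red Treg knockout) and black bars their mean. The lipid synthesis genes shown lie left of 0 in every library, as Acsl1 at a mean of -2.66, while Slit2 (2.0) and Ccn5 (2.08) lie right of it.

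For 4 lipid genes, Acsl1, Agpat2, Dgat1 and Fasn, the nuclei led by set D were the class with the smallest differences, while for Scd1 it was those led by set B. Fasn was on average higher in the Peg10-rich nuclei than in those led by set D. Against nuclei led by set D, the mean log2 ratio of Acsl1 was -0.83, that of Agpat2 -0.38, that of Dgat1 -0.44 and that of Fasn 0.69, while that of Scd1 was -1.19. Against nuclei led by set B the same genes had -2.83, -2.35, -2.20 and -2.63, and Scd1 had -0.96. Against nuclei led by set A they had -2.79, -1.99, -1.90 and -1.27, and Scd1 had -2.03. Slit2 was higher than in each of these classes in 6 of 6 libraries, by 2.23 against set D, 1.34 against set B and 3.08 against set A, and so were Ccn5 (1.47, 1.89 and 2.98) and Dclk3 (1.98, 1.46 and 3.59). These are descriptions over libraries that share their nuclei's source, with no test.

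Between the genotypes, 3 of 7766 genes tested in the Peg10-rich nuclei passed edgeR's quasi-likelihood test at an adjusted p of 0.05 (0.0386%), 2 of which fell (0.0258%) and 1 of which rose (0.0129%). The sums behind the test were 2157266, 1471406 and 937524 UMIs in the flox controls and 667573, 323153 and 432754 UMIs in the knockouts. Over all genes tested the median log2 change was 0.01. The libraries of the genotypes did not overlap for 984 genes (12.7%), and 519 genes had an unadjusted p under 0.05. DESeq2 called 18 genes, 8 up and 10 down, which included the 3.

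Kcnc2, a voltage-gated potassium channel gene (ENSMUSG00000035681; mm10 chromosome 10, 112271121 to 112467024, plus strand), fell. It stood at 82.5, 143 and 117 CPM in the flox controls and at 5.99, 12.4 and 4.62 CPM in the knockouts, from 178, 211 and 110 UMIs and from 4, 4 and 2 UMIs. Every knockout library lay far below every control. The means were 114 ± 30.5 and 7.66 ± 4.14 CPM (SD, n = 3 each), and the log2 change was -3.99 (SE 0.38, edgeR adjusted p = 0.00112). In the other adipocyte nuclei, where 34 of 16797 genes passed the same test (0.202%, with 13 up, 0.0774%, and 21 down, 0.125%), Kcnc2 stood at 140.2, 326 and 210.0 CPM and at 90.7, 56.1 and 45.6 CPM.

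Ctnna3, an alpha-catenin gene, also fell. It lies on the plus strand of mm10 chromosome 10 at 63430098 to 65003667 (identifier ENSMUSG00000060843). Its levels were 426, 352 and 284 CPM in the flox controls and 127, 167 and 116 CPM in the knockouts, with no overlap. The log2 change was -1.41 (SE 0.20, edgeR adjusted p = 0.0259), and in the other adipocyte nuclei it was -1.26 (adjusted p = 0.0605), with libraries at 268 to 304 CPM and 98.3 to 163 CPM. The gene Lrrtm3 lies on the opposite strand within Ctnna3, and whether counting used strand is not known from the sources used here. With 1 library left out the log2 change was -1.56 to -1.25 in all 6 fits, and the edgeR adjusted p was 0.0734 to 0.131 in all but that without flox control 3 (0.0266).

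Rgs6, a regulator that shortens G protein signals (ENSMUSG00000021219; mm10 chromosome 12, 82588292 to 83162056, plus strand), rose. It stood at 16.7, 13.6 and 11.7 CPM in the flox controls and at 53.9, 65.0 and 71.6 CPM in the knockouts, from 11 to 36 UMIs in each library. The groups lay well apart. The means were 14 ± 2.5 and 63.5 ± 8.94 CPM (SD, n = 3 each), and the log2 change was 2.10 (SE 0.25, edgeR adjusted p = 0.00868). In the other adipocyte nuclei it was at 29.0, 35.3 and 43.0 CPM and at 35.7, 27.5 and 31.0 CPM.

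The 3 calls were lost under a pair of alternatives. With nuclei chosen again after thinning to 3000 UMIs, edgeR called 0 of 6688 genes (458 at an unadjusted p under 0.05). That choice changed the members but not the counts of a nucleus, since full UMI counts were summed for the test. The log2 change was then 0.14 for Rgs6, -2.24 for Kcnc2 and -1.58 for Ctnna3. In nuclei of 5000 to 20000 UMIs it called 0 of 5400 (347 at an unadjusted p under 0.05), with 2.28, -3.21 and -1.46 for the same genes. Without flox control 2, and likewise without Treg knockout 2, 1 gene was called, Kcnc2, and Rgs6 had an edgeR adjusted p of 0.0764 and 0.0734. With flox control 3 left out 4 genes were called and with Treg knockout 3 left out 3, and Kcnc2 and Rgs6 were past the threshold in both.

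Genes next in order of p did not pass. Hif3a, a hypoxia-inducible factor subunit gene, stood at 18.1, 14.3 and 16 CPM in the flox controls and 40.4, 68.1 and 83.2 CPM in the knockouts (log2 difference 1.90, edgeR adjusted p = 0.0538). Ccn5 stood at 169, 164 and 209 CPM against 467, 316 and 349 CPM (1.07, adjusted p = 0.0846). Neither gene's libraries overlapped between the genotypes. Slit2, at 211 to 274 CPM against 58.8 to 190.2 CPM, had a log2 difference of -0.91 (edgeR adjusted p = 0.615).

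Of the gene lists, edgeR called 0 genes between the genotypes in any, and their medians are given beside the 0.01 of all genes. Over all 7766 genes tested, 519 had an unadjusted p under 0.05 in edgeR and 3949 had a log2 difference above 0. Of 16 tested imprinted genes 0 were called, with 4 at an unadjusted p under 0.05, 0 called by DESeq2 and a median log2 difference of -0.08, where Grb10 had 0.86 (edgeR adjusted p = 0.432), Peg3 0.34 and Mest -0.68. Of 19 lipolysis genes 0 were called, with 5 at an unadjusted p under 0.05, 0 by DESeq2 and a median of -0.04. Of 11 lipogenesis genes 0 were called, with 2 at an unadjusted p under 0.05, 0 by DESeq2 and a median of -0.28. Of 18 genes of triglyceride synthesis and uptake 0 were called, with 5 at an unadjusted p under 0.05 and a median of -0.24, and 4 of the 18 were above 0. DESeq2 called 1 of them, Acsl1. Its level was 487 to 815 CPM in the flox controls and 357 to 369.7 CPM in the knockouts, and edgeR gave a log2 difference of -0.89 with an adjusted p of 0.215. Of 16 genes of insulin signalling 0 were called, with 3 at an unadjusted p under 0.05 and a median of -0.13, and DESeq2 called 1, Grb14. Of 22 matrix genes 0 were called, with 5 at an unadjusted p under 0.05, 0 by DESeq2 and a median of -0.10. Of 6 thermogenic genes 0 were called and 0 were above 0, with 2 at an unadjusted p under 0.05, a median of -0.32 and 1 DESeq2 call, the calcium channel gene Ryr2. In the prostaglandin, EGF family, adipokine, transcription factor, fatty acid oxidation, oxidative phosphorylation and stress lists edgeR and DESeq2 called 0, with 0 to 3 genes of each at an unadjusted p under 0.05. Leptin differed by 0.09, resistin by 0.47, Pparg by -0.14, Insr by -0.05 and Egfr by 0.40, with edgeR adjusted p of 0.715 or more.

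Whether the genotype effect differed between the Peg10-rich nuclei and the other adipocyte nuclei was tested with library as a block. Of 15251 genes, 9 passed (0.059%), 4 with a higher effect in the Peg10-rich nuclei (0.0262%) and 5 with a lower one (0.0328%). Rgs6 had a difference of effects of 2.18 on the log2 scale (SE 0.30, edgeR adjusted p = 0.000174) and Kcnc2 of -2.36 (SE 0.37, edgeR adjusted p = 0.00221), so the fall of Kcnc2 was larger in the Peg10-rich nuclei. For Ctnna3 it was -0.25 (edgeR adjusted p = 0.895). Acsl1 differed by -1.06 (SE 0.17, edgeR adjusted p = 0.0138), since its mean went from 668 ± 166 to 364 ± 6.71 CPM in the Peg10-rich nuclei and from 2939 to 3285 CPM in the others. The list also held Tspan18, a tetraspanin gene (-1.62), Cyp2e1 (-2.22) and Ppargc1a, a coactivator of mitochondrial genes (-1.50), as well as Limch1 (0.86), Pam, an enzyme that amidates peptides (0.65), and Grik2, a glutamate receptor gene (3.56). For Cyp2e1 the means were 51.6 and 182 CPM in the other adipocyte nuclei and 10.9 and 10.2 CPM in the Peg10-rich nuclei. The other adipocyte nuclei also differed in make-up, since nuclei led by set A were 30.4% of all adipocyte nuclei in the flox controls and 63.7% in the knockouts, and a change in make-up and a change within nuclei cannot be told apart in their sums. Against only the nuclei led by set B, whose median UMIs were 4290 to 16847, 2 of the 9 genes passed, Rgs6 (2.03) and Kcnc2 (-2.93), and 7 did not. The count varied with the libraries, at 21, 56 and 74 genes without flox control 1, 2 or 3 and at 28, 8 and 33 without Treg knockout 1, 2 or 3. Rgs6 passed in each of these fits, Kcnc2 not without Treg knockout 1 (edgeR adjusted p = 0.116) and Acsl1 not without Treg knockout 2 (edgeR adjusted p = 0.102). In nuclei of 5000 to 20000 UMIs, 2 of the 9 genes passed, 6 did not and 1 reversed. There Grik2 went to -0.96 and Kcnc2 to -1.25 (edgeR adjusted p = 0.408).

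**Figure D4:**
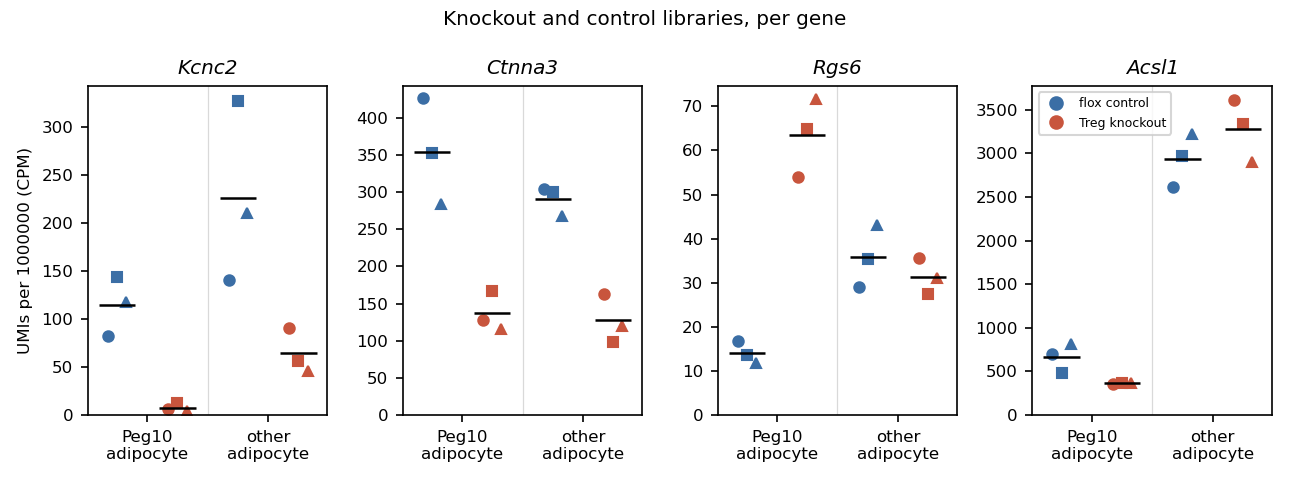
UMIs per 1000000 (y axis) of the 3 genes called between genotypes in the Peg10-rich nuclei, and of Acsl1, in Peg10-rich and other adipocyte nuclei (x axis), with 1 point per library (circles replicate 1, squares replicate 2, triangles replicate 3; blue flox control, red Treg knockout) and the group mean as a black line. Rgs6 is higher in the knockouts among the Peg10-rich nuclei (63.5 against 14 CPM), Kcnc2 is lower (7.66 against 114 CPM), and Acsl1 is lower among the Peg10-rich nuclei while its groups overlap among the others.

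RNA of other cells was present at a low level and was uneven in 1 library. Markers of T and NK cells (13 genes) summed to 5.44 to 9.60 CPM in the flox controls, 3.00 and 18.6 CPM in Treg knockouts 1 and 2 and 222 CPM in Treg knockout 3. B cell markers other than Ebf1, which these adipocyte nuclei express at 6436 to 7683 CPM, summed to 20.4 to 111 CPM in the other 5 libraries and to 467 CPM in Treg knockout 3. With likely doublets removed, the values of that library were 29.0 and 44.9 CPM. Macrophage markers (12 genes) summed to 157 to 571 CPM and progenitor markers (12 genes) to 254 to 486 CPM, against 3186 to 4553 CPM and 3109 to 6045 CPM in nuclei outside the gate. Of these, Mertk alone was at 127 to 275 CPM, against 109 to 200 CPM in the other adipocyte nuclei. Ptprc was at 261 CPM in Treg knockout 3. Bmper alone was at 67.0 to 198 CPM, against 181 to 269 CPM in the other adipocyte nuclei. How much of both sums came from other cells was not tested. Endothelial markers summed to 12.4 to 135 CPM, with Prox1 at 0. Of 8 mesothelial and epithelial markers 7 were at 0. The sums of T and NK, B cell (without Ebf1), macrophage, progenitor and endothelial markers overlapped between the genotypes (exact permutation p of 0.4 to 0.7). That of mural markers without Acta2 and Mcam did not (32.7 ± 10.4 against 12.2 ± 6.57 CPM, exact permutation p = 0.1). With Ebf1 the B cell sum did not overlap either (6861 ± 430 against 7624 ± 150 CPM, exact permutation p = 0.1). With doublets removed the endothelial sum did not overlap (32.0 ± 8.92 against 13.6 ± 3.03 CPM, exact permutation p = 0.1). The part of these markers in the gene results was not tested beyond the removal of doublets, after which edgeR called 6 genes, including Kcnc2 (-4.53), Ctnna3 (-1.29) and Rgs6 (2.58).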

How the data were processed

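Each library came as a deposited sparse matrix of UMI counts, made by the authors with Cell Ranger 7.1 per the submitters' processing notes, with its barcode and gene names. The notes name mm10 and GRCh38. Whether introns or strand were used in counting is not given in the sources used here. Nuclei were isolated on a sucrose gradient and sorted on DAPI before 10x 3′ libraries were made, per the labels' protocols. Kept nuclei had at least 500 genes and no more than 5% mitochondrial UMIs, and the rule was applied to them with likely doublets left in. Scrublet scores (scanpy 1.11.5) marked 0.8% per 1000 barcodes as doublets for an alternative.

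UMI counts were summed per library over the Peg10-rich nuclei (323153 to 2157266 UMIs) and tested with edgeR 4.0.16 (TMM scaling, low counts filtered by filterByExpr, robust quasi-likelihood test, Benjamini-Hochberg adjustment) in R 4.3.3, with DESeq2 1.42.0 as an alternative. The interaction was fitted on 12 sums with library as a block. The 28 genes of the rule stayed in the totals and out of the tests. Shares and sums were compared with exact two-sided permutation tests over libraries, and Clopper-Pearson intervals cover counting error only. In counts simulated from these libraries (7766 genes), edgeR recovered 50 of 50 genes changed 4-fold up, 41 of 50 at 0.25-fold, 28 of 50 at 2-fold and 19 of 50 at 0.5-fold, with 12 false calls. All these genes were changed in the same simulated counts, and recovery where fewer genes change was not tested. Libraries of a group differed beyond counting noise (chi-square per degree of freedom 2.48 to 4.23). Positions are from GENCODE vM21 on mm10.

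The set of nuclei, the gene lists and the alternatives were chosen with earlier results of these data known. Named genes were those past the threshold without overlap of libraries and with at least 5 CPM in the higher group. Up to 12 were named in each direction (6 for the interaction). A fixed list was given whatever its p. Genes from the 16 highest and 12 lowest ratios against other adipocyte nuclei were named too. List members named for their ratios, and Hif3a and Ccn5 between the genotypes, were picked after their values were seen.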

Additional observations from a re-analysis of the deposited data

Results flagged for a closer look

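For 9 genes the genotype effect differed between the Peg10-rich nuclei and the other adipocyte nuclei by edgeR's interaction test, which used both sums of each of the 6 libraries. The differences of effects (log2, knockout over control in the Peg10-rich nuclei minus the same in the others) were 2.18 for Rgs6, -2.36 for Kcnc2, 3.56 for Grik2, -1.62 for Tspan18, -1.06 for Acsl1, -2.22 for Cyp2e1, 0.86 for Limch1, 0.65 for Pam and -1.50 for Ppargc1a. Rgs6 passed under all 10 alternatives run for the interaction, with 2.02 to 2.55. The choice of nuclei after thinning was not among these alternatives, and with it the Rgs6 change within the Peg10-rich nuclei was 0.14. Grik2 rested on few molecules, with 5 to 19 UMIs in each library of the Peg10-rich nuclei, at 8.81, 3.40 and 5.33 CPM in the flox controls and 8.99, 24.8 and 34.7 CPM in the knockouts. For Pam, the Peg10-rich nuclei had 1439 ± 206 and 1299 ± 104 CPM (SD, n = 3 each), and the other adipocyte nuclei 779 and 435 CPM. For Ppargc1a the same means were 29.1 and 15.8 CPM, and 41.8 and 63.6 CPM. Tspan18 had 41.6 and 15.5 CPM in the Peg10-rich nuclei, and 161 and 184 CPM in the others. Limch1 had 213 and 352 CPM, and 175 and 153 CPM.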

How the results depend on the processing

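The difference in share kept its direction under all 15 alternatives, with -2.83 to -1.38 percentage points when a library was left out and -0.93 when nuclei led by set A left the denominator; with at least 3 genes of set C, or 6 genes of the gate, the libraries overlapped (exact permutation p = 0.2). The count of genes changed between the genotypes in the Peg10-rich nuclei (3) was 18 with DESeq2, 6 with doublets removed, 0 with nuclei chosen after thinning, 0 in nuclei of 5000 to 20000 UMIs and 156 without the filter on low counts; leaving out 1 library gave 1 to 4. The count of genes with differing effects (9) was 5 with DESeq2, 16 without TMM, 2 against nuclei led by set B alone, and 8 to 74 with 1 library left out. In nuclei of 5000 to 20000 UMIs, 2 of the 9 genes passed. Grik2 reversed to -0.96 there, and the cause was not tested. Without the low-count filter Slit2 (-1.0), Grb10 (0.76) and Lsmem1 (-0.83) passed too. The labels do not say whether the same replicate numbers pair the libraries. Correlations of deviations were 0.01, 0.01 and 0.00 for same-numbered libraries and -0.035 to 0.022 for the rest. With all of them near 0, they cannot decide whether libraries were paired. With the replicate number as a block 9 genes were called, including the 3. The knockouts' sums held 323153 to 667573 UMIs from 31 to 40 nuclei. In counts simulated at these depths edgeR recovered 28 of 50 genes raised 2-fold and 19 of 50 lowered to 0.5-fold. Many more genes were changed there at once than were called in the data, and recovery with fewer changed genes was not tested.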
